A study of Macaca radiata with 6 samples.

Results

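The genes described here are the families that make, break down and carry the signal of cAMP in the corpus luteum (CL): adenylyl cyclases (ADCY), phosphodiesterases (PDE), subunits of protein kinase A (PKA), A-kinase anchoring proteins (AKAP), regulators of G protein signalling (RGS), and the CREB factors with CREM. Members were chosen by gene symbol alone, each gene was represented by the probe set whose mean log2 signal over the 6 arrays was highest, and 69 of the 14132 genes with a probe set of their own symbol were found. They comprised 9 ADCY, 18 PDE, 7 PKA subunit, 9 AKAP, 18 RGS and 8 CREB genes. The symbols also took in PDE6D, a prenyl-binding protein named after a retinal PDE, and RGS7BP and RGS9BP, which bind RGS proteins, so these are members by name and not by enzyme or domain.

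Cyclical female bonnet monkeys (Macaca radiata) were injected on day 7 of the luteal phase with Cetrorelix (CET), which blocks the GnRH receptor and so removes pituitary LH, at 150 µg/kg BW, or with the 5.25% glucose vehicle (VEH), and the CL was collected 24 h later. Total RNA of 3 CET and 3 VEH CL was hybridised to rhesus macaque Affymetrix arrays, 1 array per CL, so that probes designed for a related species read the bonnet monkey transcripts. The labels describe the animals of both groups as the same monkeys but do not say which CET array belongs with which VEH array. The comparison of CET with VEH asks which transcripts differ in a CL that has lost LH support for a day. Circulating progesterone also falls within that day, and the paper calls the treatment LH/P4 depletion. Loss of LH and loss of progesterone therefore cannot be told apart in these arrays. Bulk luteal tissue was used, and the paper's methods describe each CL as cut into pieces before freezing. In such samples fewer cells of a type and less RNA per cell cannot be told apart.

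LH acts on luteal cells through a receptor coupled to the stimulatory G protein, which activates membrane adenylyl cyclases to form cAMP. The nucleotide binds the regulatory subunits of PKA and frees the catalytic subunits, which phosphorylate proteins of cholesterol transport and steroid synthesis and CREB factors in the nucleus. PDEs end the signal by hydrolysing cAMP or cGMP, AKAPs hold PKA close to its substrates, and RGS proteins speed the return of G proteins to their inactive state.

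The deposited values were MAS5 signals, which were taken to the log2 scale and quantile-normalized, and limma was run on 52707 probe sets. Values below are log2 signals unless another scale is given, a difference is CET minus VEH, and ± is the SD of 3 arrays. Probe sets with a mean under 7.43, the 40th percentile, are called dim because no detection calls were used. The arrays were not alike in RNA quality: the 3' signal of the GAPDH control was 143 times the 5' signal on CET replicate 2, and 3.03 to 5.89 times on the other CET and 1.79 to 7.31 times on the VEH arrays. Every CET array had a higher mean Spearman rho with the VEH arrays (0.756, 0.727 and 0.733 for CET replicates 1, 2 and 3) than with the other CET arrays (0.664, 0.710 and 0.709), and the gap was widest for CET replicate 1. The summed linear signal of 7 luteal steroidogenic markers was 37900 to 99900 after CET and 92500 to 124000 after VEH, and all 7 had a lower mean after CET (median difference -1.18). STAR, HSD3B2 and the other markers of that list that were read lay above the dim limit, while LHCGR, CYP11A1 and SCARB1 were not read. Like the luteal sums, those of endothelial, pericyte and smooth muscle, fibroblast, leukocyte and red blood cell markers overlapped between the groups. The median differences of these lists, in that order, were -0.33, -0.32, -0.24, -0.14 and 0.52. The part of RNA quality and of luteal cell RNA in the differences given below was not tested beyond the values printed beside them.

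Of the 69 members, 36 had a higher and 33 a lower mean after CET, and the median difference was 0.041, against -0.084 over all genes. This near balance depended on the scaling between arrays: 41 members were higher and 28 lower with signals as deposited, and 32 were higher and 37 lower with array medians subtracted, when the median over all genes moved to 0.0042 and -0.20. A difference past 1.5-fold was found for 10 members on the higher side (14.5%), where 18.6% of all genes were higher by this criterion, and for 16 members on the lower side (23.2%), where 24% of all genes were lower. No member passed an adjusted p of 0.05 in limma, where 0% of the probe sets passed and 0.827 was the smallest value. Limma gave 6 members (8.70%) an unadjusted p under 0.05, against 5.03% of all genes, and the methods' t-test on the same values gave 1. The 3 CET arrays lay all on one side of the 3 VEH arrays for 4 members (5.80%), against 11.5% of all genes, and an exact permutation test of 3 against 3 arrays cannot go below p = 0.1. Each of these shares was near or under that of all genes, except the share at an unadjusted p. The p-values measure the spread between these CL only, and limma draws each gene's spread towards that of other probe sets of like signal. For a gene whose arrays lie far apart, the limma p can thus be smaller than that of the t-test.

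**Figure D1:**
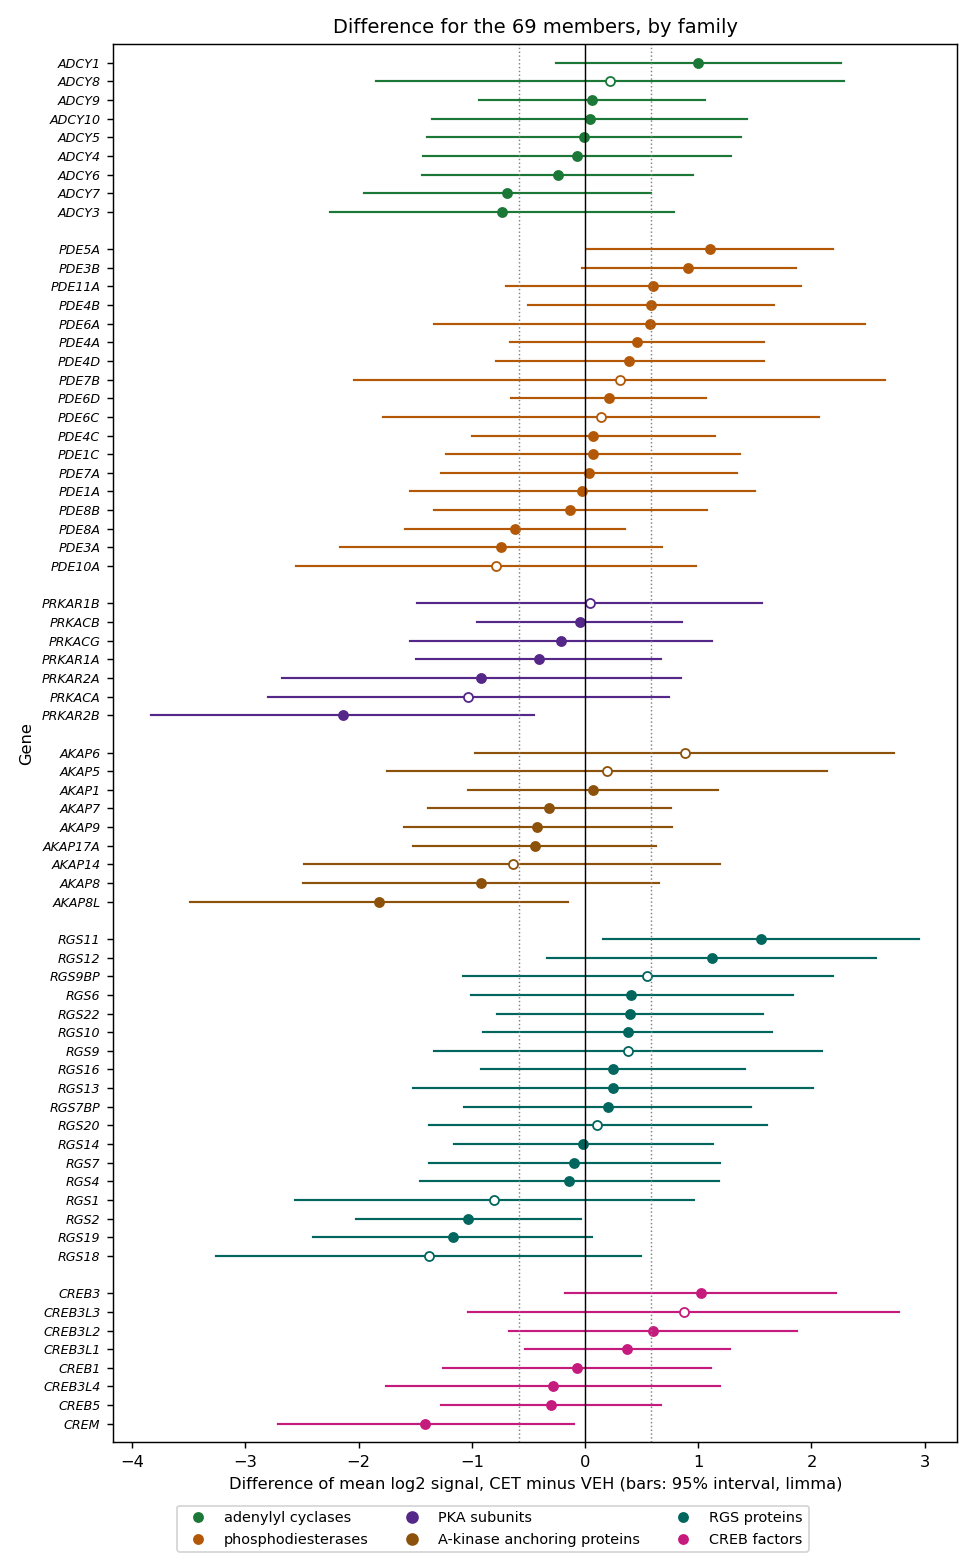
Difference of mean log2 signal, CET minus VEH (x axis), with its 95% interval from limma for each of the 69 members (y axis), coloured by family and sorted within it. Open circles are dim probe sets, the solid line is no difference and the dotted lines are 1.5-fold. The interval of PRKAR2B, at -2.14, lies farthest below 0, and 6 of the 7 PKA subunits lie left of 0.

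The PKA subunits had the most uneven split of the 6 families, with 6 of 7 means lower after CET and a median difference of -0.41. Over all genes, 7725 of 14132 means were lower and the median difference was -0.084. Past 1.5-fold were 3 subunits on the lower side (42.9%, against 24% of all genes) and 0 on the higher side (0%, against 18.6%). The groups did not overlap for 2 subunits (28.6%, against 11.5% of all genes). PRKAR2B, the regulatory subunit RIIβ of type II PKA, had the largest difference of any member. Its signal was 10.24, 6.54 and 8.97 on CET replicates 1, 2 and 3, against 10.63, 10.63 and 10.92 on VEH replicates 4, 5 and 6. All CET arrays lay below all VEH arrays, and the CET arrays were far apart (8.58 ± 1.88) where the VEH arrays were close together (10.73 ± 0.17). The difference was -2.14 (standard error 0.77, 95% interval -3.83 to -0.45), a mean at 0.226 times that after VEH, with an unadjusted p of 0.0173 and an adjusted p of 0.827 in limma. With the gene's own spread alone, the methods' t-test gave a standard error of 1.09 and an unadjusted p of 0.12. CET replicate 2, whose 3' to 5' ratio was the highest, was the lowest. The difference was -1.13 when that array was left out, -3.0 when CET replicate 1 was, and -1.38 when adjusted for the 3' to 5' ratio. PRKAR2B has a single probe set on this array, so no other reading of it can be set beside this one.

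PRKAR2A, the subunit RIIα, was read at 5.92, 7.63 and 9.17 after CET, against 8.26, 8.26 and 8.94 after VEH. Here CET replicate 1 was the lowest and CET replicate 3 lay above every VEH array, so the groups overlapped. The difference of -0.92 (standard error 0.81) became -0.088 without CET replicate 1 and -1.73 without CET replicate 3. PRKAR1A, the subunit RIα found in most tissues, had 10.55, 9.48 and 9.72 after CET, against 11.00, 10.22 and 9.78 after VEH. A single CET array lay within the VEH range and the difference was -0.41 (standard error 0.49). Its other, dim probe set had a difference of -1.50 (standard error 1.36). PRKAR1B (RIβ, mainly neuronal) was dim and averaged 7.33 ± 0.63 after CET and 7.29 ± 0.18 after VEH, a difference of 0.041 that changed sign when CET replicate 2, CET replicate 3 or VEH replicate 5 was left out.

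Among the catalytic subunits, PRKACA was read at 4.49, 5.16 and 5.39 after CET, against 5.56, 5.87 and 6.71 after VEH. All CET arrays were lower, but every value lay under the dim limit, and the difference of -1.03 (standard error 0.81) was -0.18 when signals under the 20th percentile of each array were set to that percentile. PRKACB, the catalytic subunit Cβ, had 10.80, 11.08 and 10.77 after CET, against 10.40, 11.28 and 11.09 after VEH. The CET arrays lay inside the VEH range, and the difference was -0.043 with a 95% interval of -0.95 to 0.86. Its other probe sets differed by -0.32 and -1.70 (standard error 0.62 and 1.05), so with the mean over probe sets PRKACB came to -0.69. PRKACG, the testis form, had a difference of -0.21 (standard error 0.61). Averaged over the 7 subunits, each array's deviation from the VEH mean was -0.70, -0.86 and -0.47 on the CET arrays and -0.039, -0.15 and 0.19 on the VEH arrays. That mean is taken over few genes of which PRKAR2B, PRKACA and PRKAR2A were the ones past 1.5-fold, and the lowest deviation was that of PRKAR2A on CET replicate 1 and of PRKAR2B on CET replicates 2 and 3. Averaged over all genes, the deviation was -0.021, -0.042 and -0.15 on CET replicates 1, 2 and 3. The median of the family was -0.63 with array medians subtracted, -0.42 with signals as deposited and -0.92 with the mean over probe sets.

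**Figure D2:**
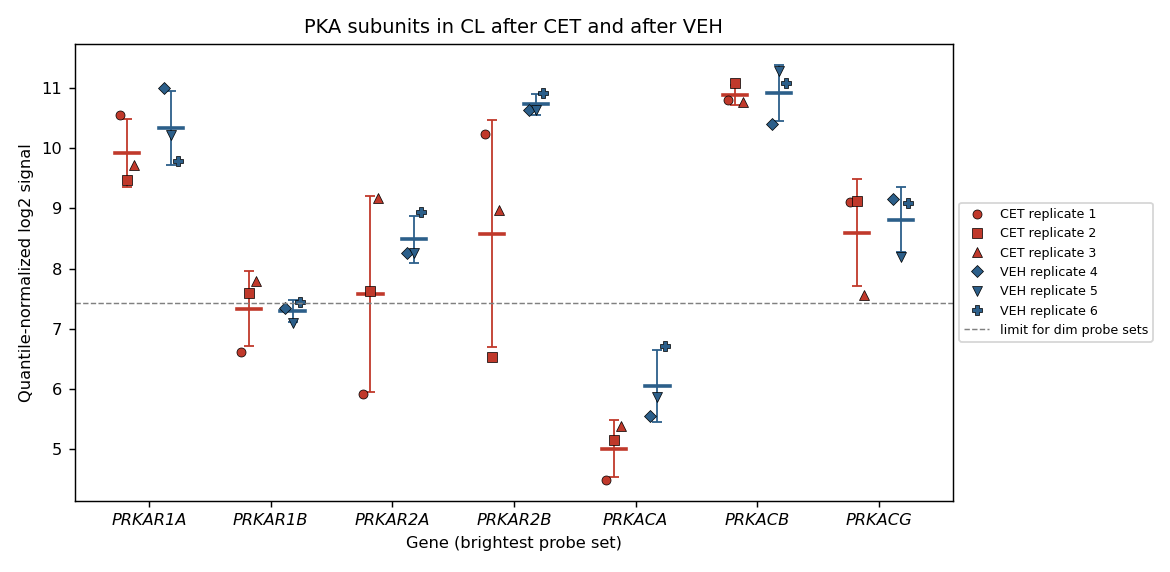
Quantile-normalized log2 signal (y axis) of the 7 PKA subunits (x axis) on the 3 CET arrays (red, left) and the 3 VEH arrays (blue, right), with the mean and SD of each group. The dashed line is the limit for dim probe sets, 7.43. The CET arrays of PRKAR2B spread over 6.54 to 10.24 and lie below all VEH arrays, and all arrays of PRKACA lie under the dashed line.

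The adenylyl cyclases, which form cAMP, had 4 higher and 5 lower means after CET and a median difference of -0.012. None of the 9 had groups that did not overlap or an unadjusted limma p under 0.05, against 11.5% and 5.03% of all genes. ADCY1, stimulated by calcium and calmodulin, had the smallest p on the higher side. It was read at 9.34, 10.25 and 8.89 after CET, against 8.77, 8.99 and 7.73 after VEH, with CET replicates 1 and 2 above every VEH array and CET replicate 3 within their range. The difference was 1.0 (standard error 0.57, unadjusted p = 0.109, adjusted p = 0.827 in limma), and 0.61 without CET replicate 2. ADCY7, stimulated by G protein βγ subunits, had the smallest p on the lower side, with 8.14, 9.39 and 10.02 after CET, against 10.46, 9.27 and 9.89 after VEH. CET replicate 1 alone lay below the VEH range, and the difference of -0.69 (standard error 0.58) was -0.17 without it.

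ADCY3, another calcium-regulated cyclase, had 7.37, 9.80 and 7.51 after CET, against 8.89, 9.24 and 8.75 after VEH. CET replicates 1 and 3 lay well below the VEH arrays and CET replicate 2 above them, so the mean difference of -0.73 (standard error 0.69) was -1.50 without CET replicate 2. ADCY6, which calcium inhibits, averaged 8.81 ± 0.77 after CET and 9.05 ± 0.20 after VEH. ADCY9, the cyclase that forskolin activates poorly, averaged 9.86 ± 0.53 after CET and 9.80 ± 0.16 after VEH, and its difference of 0.06 turned to -0.077 with array medians subtracted. ADCY4, ADCY5, ADCY8 and the soluble cyclase ADCY10 had differences of -0.07 to 0.22, with ADCY8 dim. The SD was larger after CET than after VEH for 8 of the 9 cyclases.

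The PDEs had 13 higher and 5 lower means after CET and a median difference of 0.18. Past 1.5-fold were 3 members (16.7%) in each direction, against 18.6% of all genes higher and 24% lower. PDE3B, which hydrolyses cAMP and is inhibited by cGMP, was the 1 member with all CET arrays above all VEH arrays. It was read at 10.48, 11.15 and 11.36 after CET, against 10.09, 9.77 and 10.38 after VEH, and CET replicate 1 lay closest to the VEH range. The difference was 0.91 (standard error 0.43, 95% interval -0.031 to 1.86, unadjusted p = 0.0566, adjusted p = 0.827 in limma), a mean 1.89 times that after VEH. It ran from 0.74 to 1.16 as each array was left out, was 0.85 without CET replicate 2, and was the member the methods' t-test gave at an unadjusted p of 0.0453. Of its other 3 probe sets, those at 0.95 (standard error 0.51) and 1.96 (standard error 0.87, dim) were also higher after CET, and the third had a difference of -0.59 (standard error 0.75). PDE3A, the second gene of that type, had a difference of -0.74 (standard error 0.65).

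PDE5A, which is specific for cGMP, had the smallest p of the family. Its signal was 10.20, 11.59 and 11.51 after CET, against 9.82, 9.64 and 10.53 after VEH, so CET replicates 2 and 3 lay above all VEH arrays and CET replicate 1 within their range. The difference was 1.10 (standard error 0.50, unadjusted p = 0.0475, adjusted p = 0.827 in limma). PDE5A had 4 other probe sets, at -0.78, 0.19, -1.43 and -0.83, and over all 5 its mean difference was -0.35, so the direction held only for its brightest probe set and the one at 0.19. The other genes of the cGMP-specific group by name, PDE6A, PDE6C and PDE6D, had differences of 0.14 to 0.57.

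Of the 8 cAMP-specific PDEs, 6 had a higher and 2 a lower mean after CET (median 0.19). Past 1.5-fold on the lower side was 1 of them (12.5%), against 24% of all genes. This was PDE8A, a high-affinity cAMP PDE, with 10.80, 9.92 and 10.36 after CET, against 10.48, 11.39 and 11.07 after VEH. CET replicates 2 and 3 lay below all VEH arrays, CET replicate 1 did not, and the difference was -0.62 (standard error 0.44). A further probe set of PDE8A gave 0.069 (standard error 0.40). PDE8B averaged 8.53 ± 0.55 after CET and 8.66 ± 0.29 after VEH, and its difference of -0.13 turned to 0.027 with signals as deposited. PDE7A, another high-affinity cAMP PDE, had 9.05, 7.99 and 10.11 after CET, against 9.20, 8.82 and 9.02 after VEH. Its VEH arrays differed little, with CET replicate 2 below and CET replicate 3 above them, giving a difference of 0.035 (standard error 0.59) that was -0.087 with array medians subtracted.

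The PDE4 genes encode the rolipram-sensitive cAMP PDEs. PDE4B was read at 9.99, 9.61 and 9.29 after CET, against 8.85, 9.65 and 8.64 after VEH. Its difference of 0.58 (standard error 0.50) at the brightest probe set stood beside -0.59 (standard error 0.55) at the other, so the probe sets gave opposite signs. PDE4D had 8.86, 10.77 and 10.19 after CET, against 9.72, 9.45 and 9.46 after VEH, with CET replicate 1 below and the other CET arrays above the VEH range. Its difference was 0.39 (standard error 0.54), and -0.015 without CET replicate 2. PDE4A and PDE4C differed by 0.46 and 0.074. The remaining dual-specificity genes PDE1A, PDE1C, PDE10A and PDE11A had differences of -0.79 to 0.60, with PDE10A, which was dim, past 1.5-fold on the lower and PDE11A on the higher side, and the dim PDE7B, which is specific for cAMP, differed by 0.31 (standard error 1.07).

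The AKAPs had 3 higher and 6 lower means after CET and a median difference of -0.42. Past 1.5-fold were 1 member on the higher (11.1%, against 18.6% of all genes) and 3 on the lower side (33.3%, against 24%). AKAP8L, a nuclear relative of AKAP8 that was read at the brightest of 4 probe sets, had the smallest p. Its signal was 8.28, 6.11 and 6.06 after CET, against 8.92, 8.88 and 8.10 after VEH, and CET replicate 1 was the array that lay within the VEH range. The difference was -1.82 (standard error 0.76, 95% interval -3.49 to -0.15, unadjusted p = 0.0354, adjusted p = 0.827 in limma), with a CET mean of 6.82 under the dim limit. The other probe sets of AKAP8L, all dim, differed by 1.21, -0.70 and -0.38, and at the one with 1.21 all CET arrays lay above all VEH arrays. AKAP8 itself, which anchors PKA in the nucleus, had a difference of -0.92 (standard error 0.72).

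AKAP1 tethers PKA to the outer mitochondrial membrane. It was read at 10.71, 9.71 and 9.12 after CET, against 10.00, 9.69 and 9.65 after VEH, with CET replicate 1 the highest and CET replicate 3 the lowest of all arrays. The difference of 0.07 (standard error 0.50) was -0.062 with array medians subtracted. The other 2 probe sets of AKAP1 differed by -1.25 (standard error 0.69) and by -2.94 (standard error 0.77, unadjusted p = 0.00273), and at the probe set with -2.94, which was dim, all CET arrays lay below all VEH arrays. The mean over its probe sets was -1.37. AKAP6, which in heart muscle anchors PKA at the nuclear envelope, was dim, with 6.85, 9.57 and 6.99 after CET, against 6.73, 6.65 and 7.40 after VEH. Its difference of 0.88 (standard error 0.85) was -0.0016 without CET replicate 2. Its other probe set, also dim, differed by 1.0 (standard error 0.71), with all CET arrays above all VEH arrays, and the mean over both was 0.94. AKAP5, AKAP7, AKAP9, AKAP14 and AKAP17A had differences of -0.64 to 0.19, and AKAP11 and AKAP13 were not read.

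The RGS genes had 11 higher and 7 lower means after CET and a median difference of 0.22, and the median was -0.0075 when adjusted for the 3' to 5' ratio. RGS2, which acts mainly on Gq and belongs to the R4 group, was read at 12.70, 11.54 and 11.32 after CET, against 13.23, 12.69 and 12.71 after VEH. CET replicate 1 lay just inside the VEH range and the other CET arrays below it. The difference was -1.03 (standard error 0.45, 95% interval -2.02 to -0.037, unadjusted p = 0.0432, adjusted p = 0.827 in limma), a mean at 0.49 times that after VEH. It ran from -1.40 to -0.79 as each array was left out and was -0.90 without CET replicate 2. The other probe set of RGS2 differed by -0.78 (standard error 0.47) and had all CET arrays below all VEH arrays.

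RGS19, which binds Gαi and Gαz subunits and belongs to the RZ group, had 9.03, 8.95 and 7.58 after CET, against 10.23, 9.46 and 9.38 after VEH. All CET arrays lay below all VEH arrays, with CET replicate 3 the lowest. The difference was -1.17 (standard error 0.56, 95% interval -2.40 to 0.063, unadjusted p = 0.0609, adjusted p = 0.827 in limma), with values of -1.37 when CET replicate 2 was left out and -0.71 when CET replicate 3 was. RGS11, of the R7 group that pairs with Gβ5, had the largest difference on the higher side. It was read at 9.62, 9.69 and 8.20 after CET, against 7.49, 8.30 and 7.05 after VEH, and CET replicate 3 lay just below the highest VEH array. The difference was 1.55 (standard error 0.64, unadjusted p = 0.0323, adjusted p = 0.827 in limma), and a dim probe set of the same gene gave -0.32 (standard error 0.82).

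By group, the R4 proteins, which are small and consist of little more than the RGS domain, had 2 higher and 4 lower means (median -0.47), and the R7 proteins 3 higher and 1 lower (median 0.40). RGS4 averaged 9.43 ± 0.87 after CET and 9.57 ± 0.87 after VEH, and a further probe set of it gave 0.92 (standard error 0.60) where the brightest gave -0.14. RGS16 had 9.59, 9.50 and 9.51 after CET, against 8.50, 9.14 and 10.23 after VEH, and here the VEH arrays were the ones that differed. Its difference was 0.25 with a 95% interval of -0.92 to 1.41. RGS12, a large protein of the R12 group, lies outside the rule for named members and was singled out after its values were seen. It had 11.05, 13.68 and 13.82 after CET, against 11.53, 12.27 and 11.39 after VEH, so CET replicates 2 and 3 were the highest arrays and CET replicate 1 the lowest. Its difference was 1.12 (standard error 0.66). The other RGS genes and RGS-binding proteins, RGS1, RGS6, RGS7, RGS9, RGS10, RGS13, RGS14, RGS20, RGS22, RGS7BP and RGS9BP, differed by -0.80 to 0.55 at their brightest probe sets, and RGS1, RGS9, RGS20 and RGS9BP were dim. Further probe sets above the dim limit lay outside this range. Those of RGS10 differed by 1.83 (standard error 0.77), with all CET arrays above all VEH arrays, and by -1.28 (standard error 0.75). That of RGS7 differed by 1.43 (standard error 0.78). The largest difference on the lower side, -1.38 (standard error 0.86), was that of RGS18, a dim gene of blood cells, and RGS5, a gene of pericytes, was not read.

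The CREB factors had 4 higher and 4 lower means after CET and a median difference of 0.15, which turned to -0.17 with array medians subtracted and to -0.11 without CET replicate 2. The 2 factors that PKA phosphorylates directly, CREB1 and CREM, both had a lower mean. CREM, whose gene also yields the repressor ICER, was read at 9.59, 8.19 and 8.61 after CET, against 9.31, 11.19 and 10.11 after VEH. CET replicates 2 and 3 lay below all VEH arrays, CET replicate 1 lay within their range, and VEH replicate 5 was far above the rest. The difference was -1.41 (standard error 0.59, 95% interval -2.71 to -0.10, unadjusted p = 0.0366, adjusted p = 0.827 in limma). It was -0.88 without VEH replicate 5 and -1.11 without CET replicate 2. The 5 other probe sets of CREM differed by -0.73 to 0.28, and 4 of them were lower after CET. CREB1 had 9.12, 9.63 and 9.92 after CET, against 8.63, 10.13 and 10.12 after VEH, with all CET arrays within the VEH range. Its difference was -0.071 (95% interval -1.25 to 1.11) at the brightest probe set and 0.25 at the other.

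The membrane-bound factors of the CREB3 group, which are released by proteolysis, had 4 higher and 1 lower mean and a median of 0.60. CREB3 was read at 10.25, 12.46 and 11.90 after CET, against 10.75, 10.50 and 10.29 after VEH. CET replicates 2 and 3 lay above all VEH arrays and CET replicate 1 below them. The difference was 1.02 (standard error 0.55, unadjusted p = 0.0872, adjusted p = 0.827 in limma), 0.59 without CET replicate 2 and 1.62 without CET replicate 1, and the other probe set gave -0.31 (standard error 0.51). CREB3L1, CREB3L2, CREB3L3 and CREB3L4 had differences of -0.28 to 0.87, with CREB3L3 dim, and CREB5, which is not among the membrane-bound factors, differed by -0.30 (standard error 0.44).

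**Figure D3:**
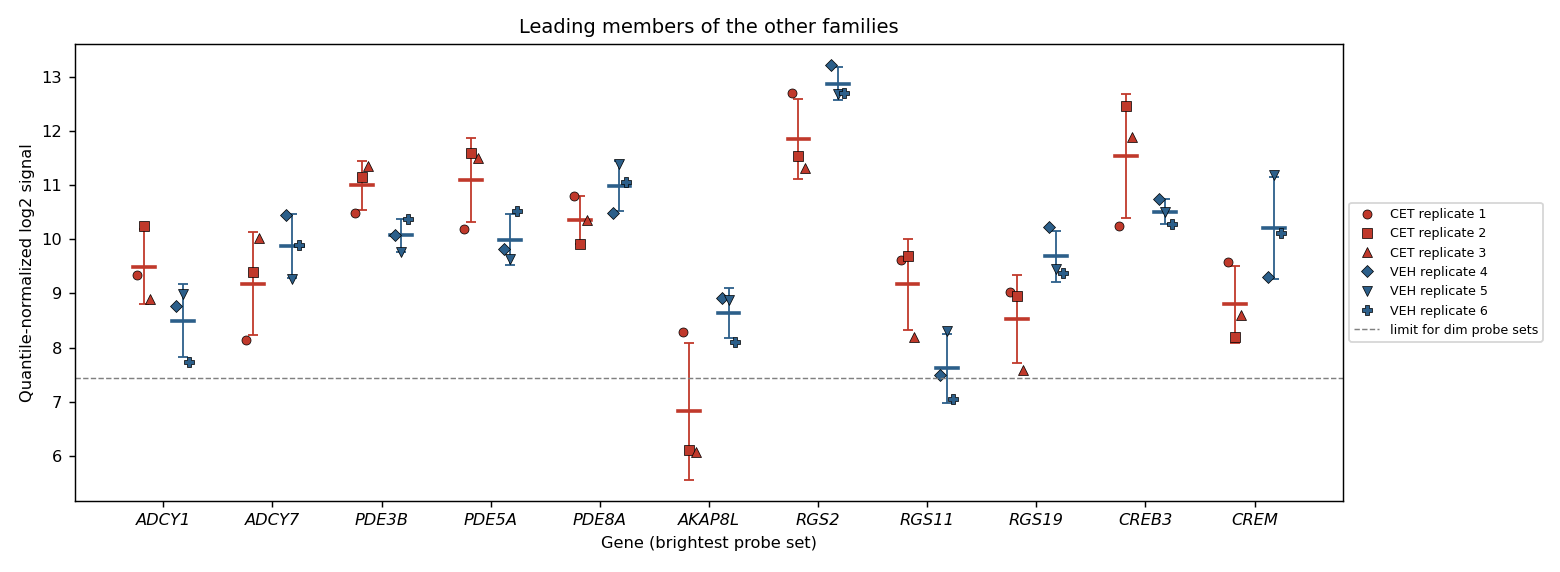
Quantile-normalized log2 signal (y axis) on the 3 CET arrays (red, left) and the 3 VEH arrays (blue, right). The mean and SD of each group are drawn. The genes (x axis) are the members with the smallest p in a direction in the other families, with PDE3B and RGS19. AKAP6, which had the smallest p of the AKAPs on the higher side, is not shown. The dashed line is the limit for dim probe sets. PDE3B and RGS19 are the genes whose groups do not overlap, and for PDE5A, AKAP8L, CREB3 and CREM the CET replicate 1 circle stands apart from the other CET arrays.

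The median SD of the 69 members was 0.770 after CET and 0.413 after VEH, and the SD was larger after CET for 47 members (68.1%), against 66.8% of all genes. A CET array held the lowest value of the 6 for 45 members (65.2%, against 61.3% of all genes) and the highest for 48 (69.6%, against 55.9%). CET replicate 1 lay below all VEH arrays for 22 members, above all of them for 18 and within their range for 29. For CET replicate 2 these counts were 17, 25 and 27, and for CET replicate 3 they were 27, 20 and 22. Members below all VEH arrays were 31.9%, 24.6% and 39.1% on CET replicates 1, 2 and 3, against 25.3%, 31.9% and 38.3% of all genes. Those above all VEH arrays were 26.1%, 36.2% and 29%, against 26.4%, 31.8% and 26.7% of all genes. The members within the VEH range were 42%, 39.1% and 31.9% on CET replicates 1, 2 and 3, against 48.3%, 36.3% and 35% of all genes. All 3 CET arrays left it on the same side for 4 members, the count given above beside that of all genes. The heat map of single arrays shows this as columns of unlike colours under CET.

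**Figure D4:**
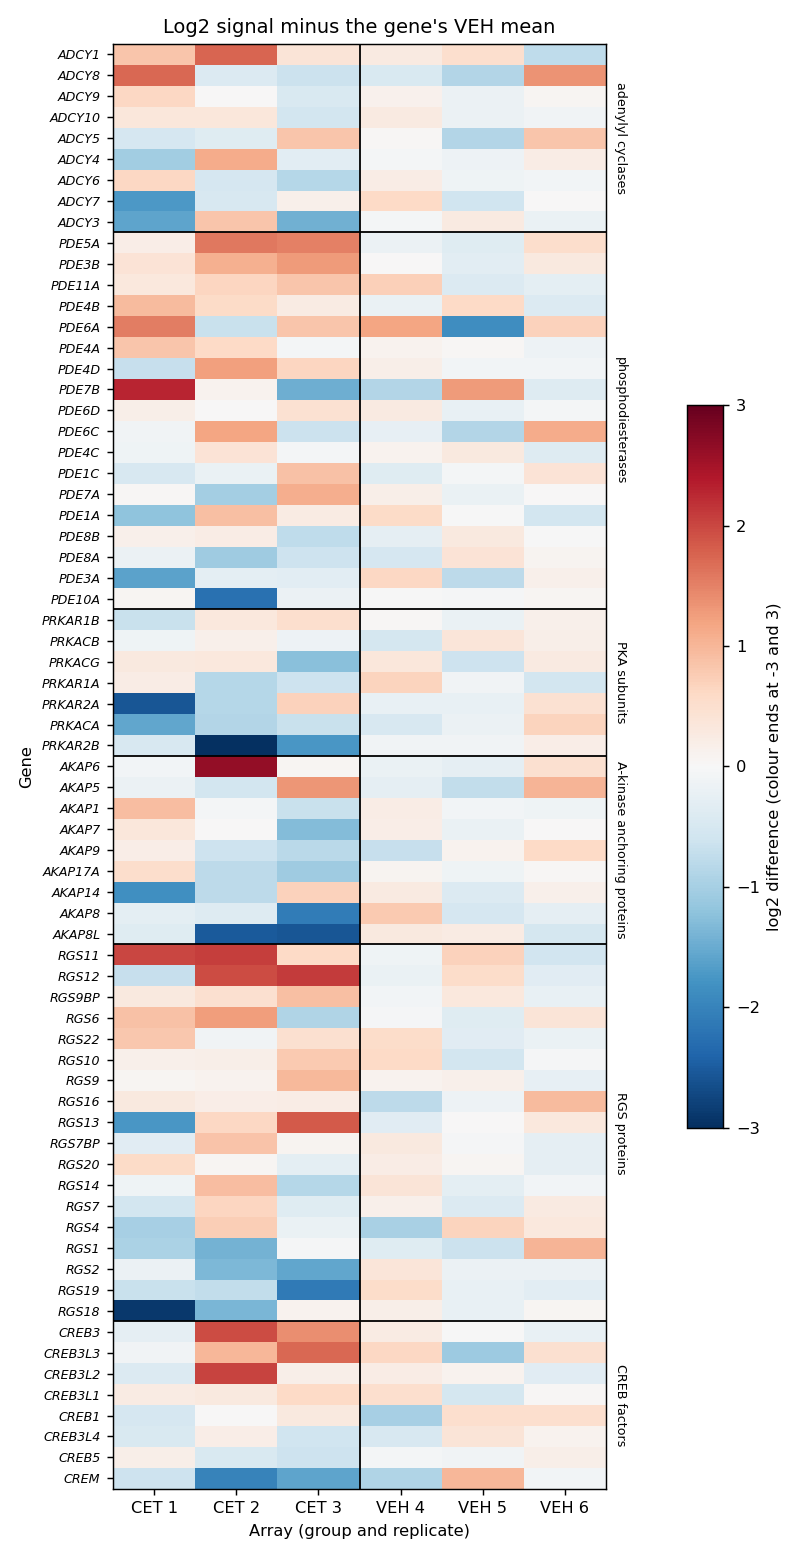
Log2 signal of each member (y axis, by family and sorted by the mean difference) on each array (x axis, 3 CET then 3 VEH) minus the gene's mean over the VEH arrays; red is higher and blue lower, and the colour scale ends at -3 and 3. The CET columns hold deeper colours than the VEH columns, and PRKAR2B is deepest blue on CET replicate 2 and AKAP6 deepest red there.

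Without CET replicate 1, the CET array closest to VEH by rho, 11 members (15.9%) had an unadjusted p under 0.05, when 16.3% of all genes had such a p, and 21 members (30.4%) did not overlap between the groups, against 36.6% of all genes. Without CET replicate 2, which had the highest 3' to 5' ratio, 3 members had such a p, against 3.69% of all genes. Those 3 were PRKAR2B, RGS19 and ADCY3, and 28 members were then higher and 41 lower after CET. The direction of PRKAR2B, PRKAR2A, PRKACA, PDE3B, PDE8A, RGS2, RGS11, RGS19, AKAP8L, CREB3 and CREM was the same in every alternative that was run, although their adjusted p never passed 0.05. All but PRKAR2A were named for a small p or for groups that did not overlap. The alternatives reuse the same arrays, so a kept direction is not separate support. With the mean over probe sets AKAP8L, CREM, CREB3 and RGS11 came to -0.42, -0.49, 0.36 and 0.62. PRKACA was absent when dim probe sets were left out.

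**Figure D5:**
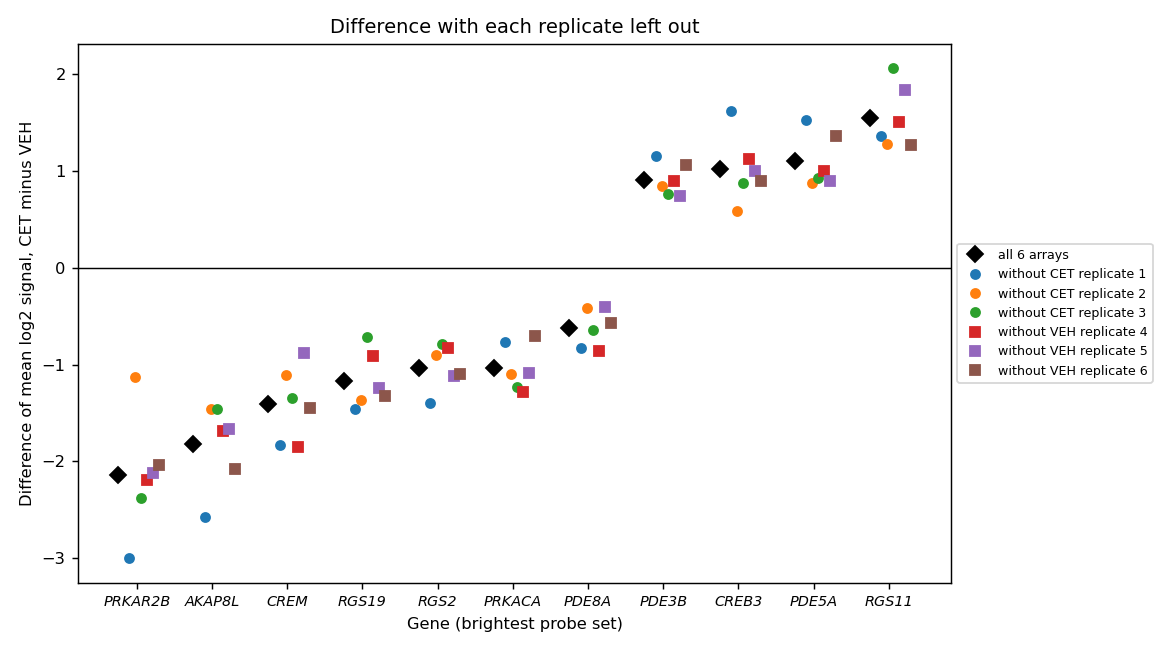
Difference of mean log2 signal, CET minus VEH (y axis), for leading members (x axis) with all 6 arrays (black diamonds) and with each CET (circles) or VEH (squares) replicate left out. No point of the genes shown crosses 0, and the points of PRKAR2B range from -3.0 without CET replicate 1 to -1.13 without CET replicate 2. AKAP6 and PRKAR1B, whose differences changed sign as a replicate was left out, are not shown.

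The probe sets of a gene did not always give the same sign. Of the 69 members, 30 had a single probe set and 39 had several. All other probe sets had the sign of the brightest for 9 of the 39, all had the opposite sign for 15, and 15 were mixed. Of the 74 other probe sets 39 had the same sign, and 33 lay above the dim limit. Among the genes named for a small p or for groups that did not overlap, RGS2 and AKAP6 had a single other probe set, of the same sign. ADCY1, ADCY7, PRKAR1B, PRKAR2B, PRKACA and RGS19 had no other. PDE3B, PDE5A, PDE8A, AKAP8L, RGS11, CREB3 and CREM had at least 1 probe set of the opposite sign. The brightest probe sets of AKAP9, AKAP17A and CREB3L3 are of the kind that can bind related transcripts, so their values are uncertain.

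Genes around the families were read from lists of the same pathway. Of 15 receptors that couple to cAMP, 6 were read, and 1 had a higher and 5 a lower mean after CET. ADCYAP1R1, the PACAP receptor, averaged 9.64 after CET and 10.40 after VEH (difference -0.76, standard error 0.47, and -0.19 over the mean of its probe sets), and CRHR1, the CRH receptor, 10.55 after CET and 9.91 after VEH (0.64, standard error 0.47, and 0.32 without CET replicate 2). The receptors of the gonadotropins, LHCGR and FSHR, were not read. Of 20 G protein subunits 10 were read, not including GNAS, and 4 were higher and 6 lower. GNAI1, an inhibitory α subunit, had 9.49, 8.89 and 9.35 after CET, against 9.98, 10.49 and 10.38 after VEH. All CET arrays were lower, and the difference was -1.04 (standard error 0.44, unadjusted p = 0.0377, adjusted p = 0.827 in limma). GNB4, a β subunit, differed by 1.77 (standard error 0.83) at its brightest probe set and by -0.21 over the mean of its probe sets.

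Of 10 symbols listed for receptor kinases and arrestins 6 were read, with 3 higher and 3 lower means. ADRBK1 and ADRBK2, counted as not read, are older symbols of GRK2 and GRK3, which were read. GRK2, a kinase that desensitises receptors, had 8.69, 9.11 and 8.04 after CET, against 9.73, 9.26 and 9.32 after VEH, all CET arrays being lower (difference -0.82, standard error 0.51). Over the mean of its probe sets GRK2 differed by -0.17. ARRB1, an arrestin, differed by 0.78 (standard error 0.51), and by 0.28 over the mean of its probe sets. Of 12 symbols listed for other cAMP effectors and PKA inhibitors 10 were read, with 4 higher and 6 lower. POPDC1, counted as not read, is an older symbol of BVES, which was read. PKIG, an inhibitor of the PKA catalytic subunit, had 9.89, 8.88 and 7.46 after CET, against 10.43, 10.52 and 9.75 after VEH. CET replicate 1 lay within the VEH range, and the difference was -1.49 (standard error 0.62, unadjusted p = 0.0343, adjusted p = 0.827 in limma). RAP1A, a small GTPase downstream of the cAMP sensor EPAC, differed by -0.66 (standard error 0.47), by -0.21 without CET replicate 2 and by -0.19 over the mean of its probe sets.

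Downstream, 10 of 13 partners of CREB were read, with 4 higher and 6 lower means. ATF2, a factor that binds CRE sites, differed by -1.54 (standard error 0.85), and by -0.74 without CET replicate 2 and -0.48 when adjusted for the 3' to 5' ratio. PPP3CB, a calcineurin subunit, differed by -0.77 (standard error 0.44). Of 16 immediate targets of cAMP 12 were read, and 3 had a higher and 9 a lower mean after CET. STAR, the protein that brings cholesterol into mitochondria, had 14.85, 12.75 and 13.65 after CET, against 15.23, 15.58 and 14.91 after VEH. The groups did not overlap and CET replicate 1 came close to the VEH arrays (difference -1.49, standard error 0.53, unadjusted p = 0.0172, adjusted p = 0.827 in limma), and without CET replicate 2 the difference was -0.96. NR4A2, an orphan nuclear receptor, had 10.01, 9.08 and 9.21 after CET, against 10.29, 10.39 and 10.45 after VEH, again with all CET arrays lower (difference -0.95, standard error 0.45). STAR stands in the luteal steroidogenic list as well. In none of these 6 lists did a gene pass an adjusted p of 0.05 in limma. An unadjusted limma p under 0.05 was found for 0, 1, 0, 1, 0 and 1 of their genes, in the order given. These were 0%, 10%, 0%, 10%, 0% and 8.33% of the genes read, against 5.03% of all genes. The groups did not overlap for 0, 1, 2, 1, 1 and 2 genes of the lists. As shares of the genes read these were 0%, 10%, 33.3%, 10%, 10% and 16.7%, against 11.5% of all genes. POPDC3, among the other cAMP effectors, was the separated gene that was higher after CET, and the rest were lower. The list splits stand beside one of 6407 higher to 7725 lower over all 14132 genes. RPL19, the ribosomal gene used as internal control in the study's RT-PCR, differed by -0.38 (standard error 0.46).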

How the data were processed

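The 6 arrays, 3 from CET and 3 from VEH animals, were used. The intensity values were deposited as MAS5 signals on a linear scale, which the authors had scaled to a common trimmed mean (500 once 2% was dropped at either end). The MAS5 version is not given in the sources used here. Log2 values, with 1 as the lowest signal allowed, were quantile-normalized over 52865 probe sets. The 158 controls were then left out and 52707 probe sets were tested with limma 3.58.1 (R 4.3.3) using an intensity trend and Benjamini-Hochberg adjustment. The platform annotation gave 24956 of these a single symbol, 361 several and 27390 none. A gene was read at its brightest single-symbol probe set, and 1 probe set with several symbols that names PRKAR1A was not used. With so few arrays precision is limited, and the median standard error over members was 0.595. The test was checked on simulated data, where it missed every change put in at a size close to the largest differences of members. It also missed most of the larger changes put in. That no member passed the adjusted p therefore does not show that no member differed.

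The members, the 12 gene lists (6 of the pathway and 6 of cell type markers) and the tests were chosen with earlier results of these data known. Named members were those whose groups did not overlap, the smallest unadjusted p in each direction in each family, and 26 genes named whatever their values, of which AKAP11, AKAP13 and RGS5 were not read. From each pathway list, up to 2 genes above the dim limit with the smallest p were named, and RPL19. Alternatives were signals as deposited, array medians subtracted, log2(signal + 16), low signals raised to the 20th percentile, dim probe sets left out, the methods' t-test, limma with array weights or with no trend, adjustment for the 3' to 5' ratio, the mean over probe sets and leaving out each replicate.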

Additional observations from a re-analysis of the deposited data

Results flagged for a closer look

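The control probe sets for the ends of housekeeping transcripts lie outside the comparison of the members, and they set one array apart. The mean log2 ratio of 3' to 5' signal over GAPDH and ACTB was 6.19 on CET replicate 2, above the VEH arrays, which had 3.68, 0.96 and 1.68, and above the other CET arrays at 2.90 and 1.79. PRKAR2B and CREM were lowest and AKAP6 and CREB3 highest on that array, and the part of RNA quality in their values was not tested beyond the values with the ratio as a covariate or without that array. With the covariate the difference was -1.38 for PRKAR2B, -0.95 for CREM, 0.19 for AKAP6 and 0.70 for CREB3.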

How the results depend on the processing

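No member passed an adjusted p of 0.05 in limma or in the methods' t-test under any alternative, and 26 of the 42 named genes, among them 15 of 29 named members, kept their sign in every one. Many of these genes were named for their values, and the same share was not computed over all genes. No paired analysis was possible because the CET and VEH arrays share no replicate numbers. Without normalization between arrays, 17 members were higher (24.6%, against 23.9% of all genes) and 10 lower (14.5%, against 21.7%) past 1.5-fold, 7 did not overlap (10.1%, against 12.7%), the PDE median was 0.35 and PDE8B was at 0.027. With array medians subtracted, ADCY9 was at -0.077, PDE7A at -0.087 and AKAP1 at -0.062, and the medians were -0.63 for PKA subunits and -0.17 for CREB factors. With the floor at the 20th percentile 3 members (4.35%, against 5.87% of all genes) had an unadjusted p under 0.05 and the PKA median was -0.21. This number was 3 without the trend (4.35%, against 3.91%), 10 with array weights (14.5%, against 11%) and 1 with the t-test (1.45%, against 5.28%), and with weights ADCY9 was at -0.046 and AKAP1 at -0.063. Adjusted for the 3' to 5' ratio it was 2 (2.90%, against 4.72%), the medians were 0.28 for PDE, -0.64 for PKA and -0.0075 for RGS, and PRKAR1B was at -0.023, ADCY9 at -0.021, PRKACB at 0.011, AKAP1 at -0.018 and CREB1 at 0.20. With the mean over probe sets 9 members did not overlap (13%, against 11.6%), the medians were 0.027 for PDE and -0.92 for PKA, and PDE5A was at -0.35, ADCY9 at -0.033, PDE4B at -0.0033, AKAP1 at -1.37, RGS4 at 0.017, CREB1 at 0.089 and GNB4 at -0.21. The cause of these shifts was not tested.

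As each replicate was left out, 2 to 11 members had an unadjusted p under 0.05, with 11 without CET replicate 1 and 2 without VEH replicate 4 or VEH replicate 5, where the share of all genes ran from 2.69% to 16.3%. In the same settings 6 to 21 members did not overlap, with 21 without CET replicate 1 and 13 without CET replicate 3 or VEH replicate 4, where the share of all genes ran from 17.4% to 36.6%. The median of all members ranged from -0.098 to 0.089, with -0.098 without CET replicate 2. Medians ranged from 0.067 to 0.26 for PDE, -0.68 to -0.30 for PKA and -0.11 to 0.29 for CREB factors. Differences that changed sign ranged from -0.22 to 0.32 for ADCY9, -0.70 to 0.061 for ADCY6, -0.50 to 0.57 for PDE7A, -0.30 to 0.19 for PDE8B and -0.015 to 0.94 for PDE4D. They ranged from -0.19 to 0.40 for PRKAR1B, -0.30 to 0.13 for PRKACB, -0.37 to 0.45 for AKAP1 and -0.0016 to 1.38 for AKAP6. The ranges were -0.64 to 0.29 for RGS4, -0.15 to 0.72 for RGS16, -0.57 to 0.18 for CREB1 and -0.70 to 0.023 for RPL19.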
